A study of Mus musculus with 15 samples.

Results

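The replication-dependent histone genes supply the histones that package newly copied DNA. They were taken here as all autosomal protein-coding genes of GENCODE M21 (mouse, mm10) whose symbol starts with Hist1h, Hist2h, Hist3h or Hist4h, which gave 67 of 20807 genes, 62 of them annotated without an intron. Of these, 54 lie in the Hist1 locus on chromosome 13, 10 in Hist2 on chromosome 3, 2 in Hist3 on chromosome 11 and 1, Hist4h4, on chromosome 6. They encode 6 linker histones H1 and, of the core histones, 18 H2A, 18 H2B, 12 H3 and 13 H4. The DNA came from E14TG2a, a mouse embryonic stem cell line cultured on gelatin with LIF and FBS. hmTOP-seq, which tethers an oligonucleotide to glucosylated 5-hydroxymethylcytosine (5hmC) and sequences from it, was made from 500, 50 and 5 ng of DNA with 2 technical replicates each, and from each input without the glucosyltransferase BGT as 2 control libraries. uTOP-seq, which reads unmodified CGs (uCGs), was made from 300 ng with 3 replicates. All groups are 1 cell line, and p values therefore measure the spread between libraries, not between cultures.

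Transcripts of these genes typically lack introns and end in a conserved stem-loop instead of a poly(A) tail, and SLBP binds that stem-loop for processing and translation. The genes are transcribed in S phase from histone locus bodies, which NPAT organizes, and many H2A and H2B genes share a promoter head to head. Hist1h1t, Hist1h2aa and Hist1h2ba encode the testis forms of H1, H2A and H2B, which are known for expression in male germ cells. 5hmC is made by TET enzymes from 5-methylcytosine and is usually scarce at active CG-rich promoters.

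The histone stem-loop, a stem of 6 base pairs around a loop of 4 bases, was looked for by its conserved positions on the coding strand, within 100 bases after the end of the coding sequence in GRCm38. It was found at 62 of 67 genes (92.5%), against 11 of 20740 other protein-coding genes (0.0530%). The 3 commonest forms are shown because they tell which genes carry the processing signal, with the stem in capitals and the loop in lower case. They end 38, 9 and 8 of the genes, and the examples are Hist1h1c (chr13:23739512-23739527, plus strand), Hist1h1t (chr13:23696525-23696540, plus strand) and Hist4h4 (chr6:136803998-136804013, minus strand).
Hist1h1c: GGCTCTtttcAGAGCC
Hist1h1t: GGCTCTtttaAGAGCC
Hist4h4: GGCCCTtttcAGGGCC
The testis forms carried the pattern too. The 5 genes without it in this window were Hist1h2an, Hist1h2bp, Hist1h2bq, Hist1h2br and Hist2h2be. Of these, Hist1h2bp, Hist1h2bq and Hist1h2br have 2, 3 and 3 annotated transcripts and coding ranges that reach across an intron. An element after an earlier coding end may therefore lie outside the window, and they cannot be said to lack it.

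The copies are alike, which bears on how many of their CGs a read can be placed at. The first 30 coding bases of 9 of 12 H3 genes were identical, as were those of 5 of 18 H2B genes. The H3 stretch is given from Hist1h3a (chr13:23762324-23762353, minus strand), the H2B stretch from Hist1h2bc (chr13:23684232-23684261, plus strand), with CGs in capitals.
Hist1h3a: atggctCGtactaagcagacCGctCGcaag
Hist1h2bc: atgcctgagcctgCGaagtcCGctccCGcc
Of the CGs in the gene spans, 36.9% had 50 bases on both sides that occur once in the genome, against 91.6% in the spans of other protein-coding genes. The 7 members Hist1h2ao, Hist1h2ap, Hist1h2bq, Hist1h2br, Hist1h4m, Hist2h2aa1 and Hist2h2aa2 had no read in their spans in any of the 9 labeled libraries, and they held 0 or 1 such unique CG each. For the 5314 CGs in the spans and 1 kb on both sides of them, the 50 bases on each side were compared with other histone gene regions. The side with more mismatches was used. CGs with an identical copy of both sides had a uTOP-seq read in 22.1% of cases, and those with over 10 mismatches on at least 1 side in 85.6%.

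**Figure D1:**
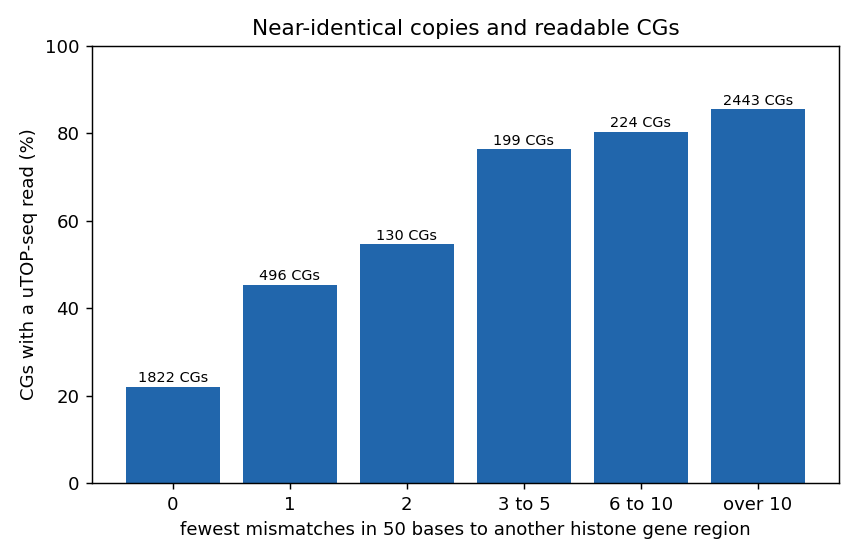
Share of CGs with at least 1 read in any of the 3 uTOP-seq libraries (vertical axis, %), for the 5314 CGs in and within 1 kb of the genes. The horizontal axis gives the fewest mismatches of 50 neighboring bases to another histone gene region, on the side with more mismatches. Bars rise from 22.1% of 1822 CGs with an identical copy of both sides to 85.6% of 2443 CGs with over 10 mismatches on at least 1 side.

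In the gene spans, from the annotated start to the annotated end, 5hmC coverage was far below the library mean while uCG coverage was not. Coverage is given below as reads per CG in a region divided by the mean reads per autosomal CG of the same library, so that 1 is the genome average. That average was 1.58 and 1.55 reads in the 500-ng libraries and 1.37, 1.11 and 0.972 in uTOP-seq. The median relative 5hmC coverage at 500 ng was 0.0275 over the 67 spans and 1.01 over the spans of all other protein-coding genes. The median relative uCG coverage was 1.31 and 1.27.

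At 500 ng, 57 of 67 spans (85.1%) had less than 0.1 of the library mean, against 8.08% of other genes. The share was 32.2% among other genes of at most 2 kb, 29.1% among other genes without an intron, and 45.5% among the 112 other genes with at least the members' median CG density, whose median was 0.120. These shares are descriptions and were not tested. With only CGs of unique sequence, which 58 members have, the median was 0.00880 for 5hmC and 2.50 for uCG. Some of these members have few such CGs, such as 1 in Hist1h2bl, where a value of 0 says little. Pooled over the Hist1 spans without the testis forms, 5hmC coverage was 0.149 over all CGs but 0.365 over unique CGs. Of these 946 unique CGs, 299 lay in Hist1h2be outside its coding sequence. A gene with 40 CGs at the library mean would have had 63.1 and 62.0 reads, and 42 of 67 members had at most 5 reads in both 500-ng libraries together.

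**Figure D2:**
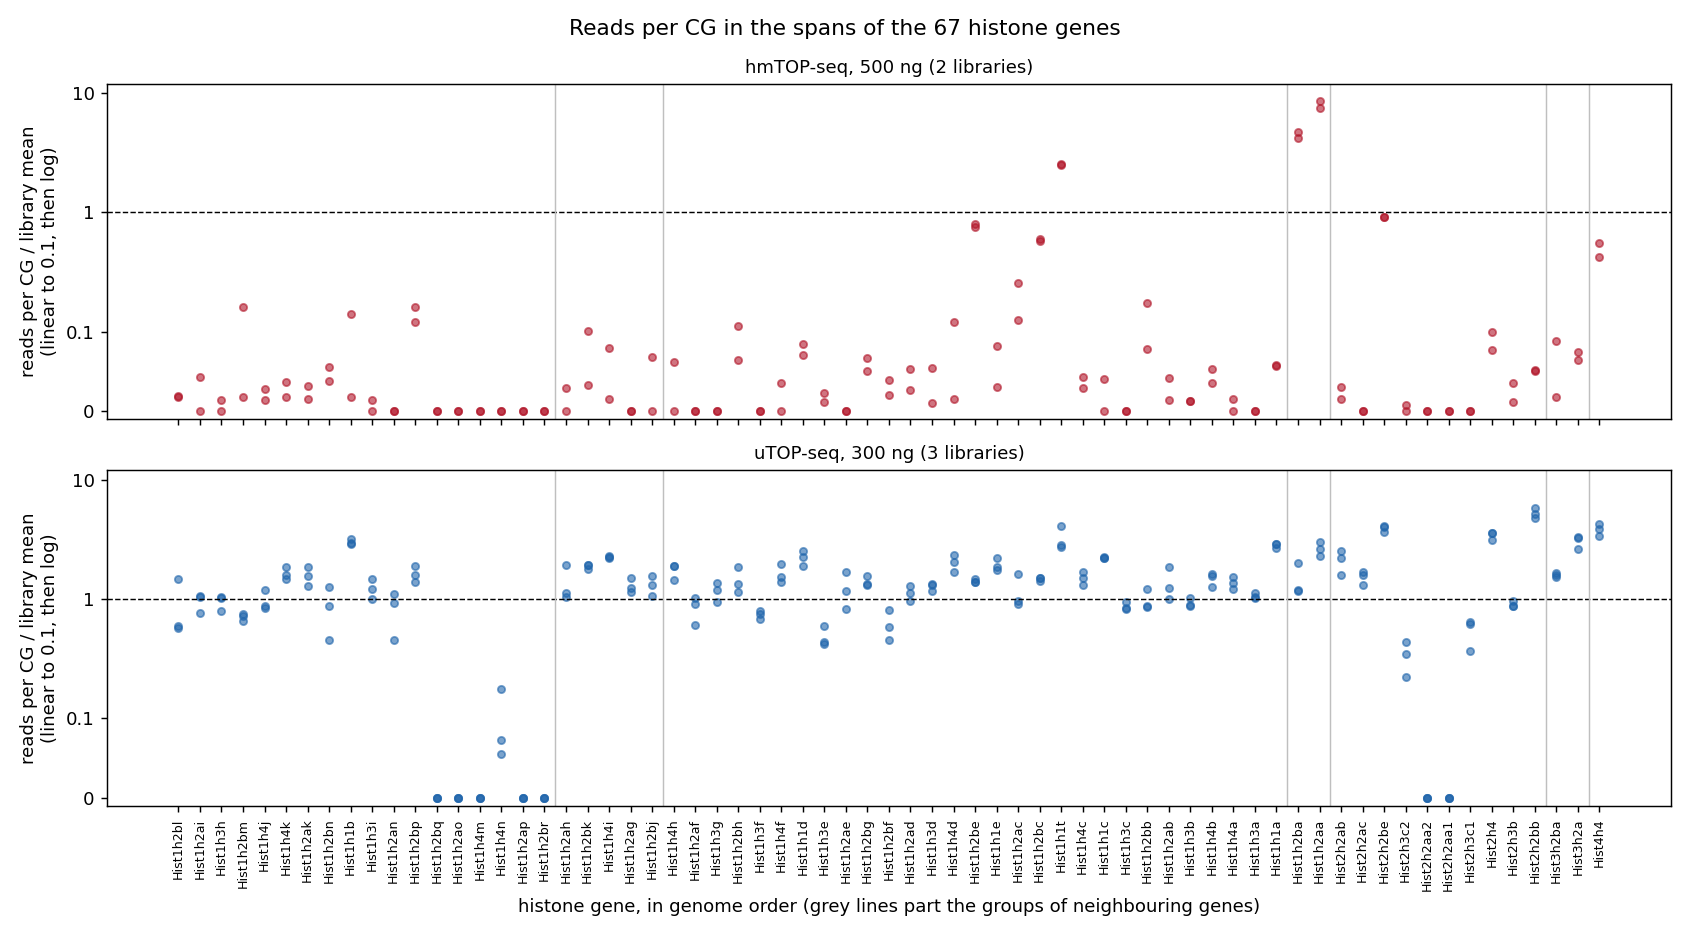
Reads per CG divided by the library mean in the span of each of the 67 histone genes, in the 2 hmTOP-seq libraries of 500 ng (top) and the 3 uTOP-seq libraries (bottom), with points for libraries and a dashed line at the genome average of 1. The 5hmC points of 57 genes average under 0.1, Hist1h1t, Hist1h2ba and Hist1h2aa stand above 1, and the uCG values of 42 genes average at least 1.

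The exceptions at the top were the testis forms. Hist1h2aa (chr13:23934462-23934851, plus strand, 25 CGs) had 336 and 291 reads in the 500-ng libraries, 240 and 222 in those of 50 ng, 36 and 174 in those of 5 ng, and 104, 73 and 56 in uTOP-seq. Its relative 5hmC coverage was 8.02 ± 0.711 (SD, n = 2), the highest of all members. Its neighbor Hist1h2ba (chr13:23933773-23934156, minus strand, 28 CGs), which starts 306 bp away in the other direction, had 186 and 205 reads in the 500-ng libraries, 85 and 78 in those of 50 ng, 59 and 111 in those of 5 ng, and 46, 62 and 32 in uTOP-seq, with a relative 5hmC coverage of 4.47 ± 0.365. Hist1h1t (chr13:23695814-23696725, plus strand, 26 CGs) had 105 and 101 reads in the 500-ng libraries, 88 and 67 in those of 50 ng, 23 and 26 in those of 5 ng, and 145, 82 and 69 in uTOP-seq, or 2.53 ± 0.0369 for 5hmC and 3.21 ± 0.742 (n = 3) for uCG. In the 500-ng libraries none of these 3 genes overlapped in relative coverage with any other member, of which Hist2h2be was the highest at 0.917 ± 0.00324. A relative 5hmC coverage of at least 1 is common outside the set. It was found in 50.2% of other protein-coding spans and in 32.7% of those of at most 2 kb. Of the 25 CGs of Hist1h2aa 24 had unique sequence on both sides, of the 26 of Hist1h1t all, but of the 28 of Hist1h2ba only 8.

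Over the 3 testis forms together, relative coverage of the spans was 4.95 ± 0.108 for 5hmC (n = 2) and 2.41 ± 0.341 for uCG (n = 3). Both signals were therefore above the genome average in the same spans, and a read count does not tell whether they came from the same DNA molecules. Over the other 64 genes it was 0.148 ± 0.000253 and 1.37 ± 0.0424. Hist1h2be outside its coding sequence held 440 and 403 of their 500-ng reads.

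By class and without the testis forms, the median relative 5hmC coverage over genes was 0 in H2A, 0.00550 in H3, 0.0309 in H4, 0.0582 in H1 and 0.0588 in H2B. With the reads and CGs of a class pooled, the values were 0.0278 ± 0.00582 in H2A, 0.00842 ± 0.00406 in H3, 0.0983 ± 0.00600 in H4, 0.0572 ± 0.00855 in H1 and 0.371 ± 0.00638 in H2B. The order of the classes therefore depends on whether reads are pooled. The SDs are between libraries and not between genes, and no class order was tested. Long spans hold most of the pooled H2B reads, with 440 and 407 in Hist1h2be, and Hist4h4 held 53 and 69 of those of H4. The pooled uCG values were 0.821 ± 0.0158, 1.10 ± 0.0589, 2.30 ± 0.0671, 1.90 ± 0.0592 and 1.35 ± 0.0416 for H3, H2A, H1, H4 and H2B. The share of unique CGs differed between the classes as well. It was 14.6% in H3, 17.9% in H2A, 83.6% in H1, 37.9% in H4 and 47.2% in H2B spans, and its part in these values was not tested.

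The 5 somatic H1 genes, the linker histones of dividing cells, had unique sequence at 83.6% of their CGs, the highest share of any class. Hist1h1c had 0 and 5 reads at 500 ng on 80 CGs, and 245, 198 and 173 in uTOP-seq. Hist1h1a had 3 and 3 against 121, 107 and 92, and Hist1h1b 8 and 1 against 159, 119 and 102. Hist1h1d had 12 and 14 against 333, 302 and 196, and Hist1h1e 11 and 4 against 203, 176 and 183. The relative 5hmC coverage of these genes lay between 0.0202 and 0.0794, and their relative uCG coverage between 1.94 and 3.03.

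Hist2h2ac, a core H2A gene, had no read in either 500-ng or 50-ng library on 46 CGs, 0 and 24 reads at 5 ng, and 100, 87 and 59 in uTOP-seq. Counting 3 reads over both libraries as the floor for a count of 0, its relative uCG coverage was at least 73.8-fold higher than that for 5hmC. In all, 11 members had no 500-ng read but at least 1 uTOP-seq read, with such lower bounds of 4.20- to 73.8-fold, the lowest for Hist1h4n with 9, 3 and 2 uTOP-seq reads. The 5 lowest values at 500 ng cannot be named singly, because 18 spans were at 0. By uCG coverage the 5 highest members were Hist2h2bb (163, 160 and 125 reads on 25 CGs, relative coverage 5.21 ± 0.501), Hist2h2be (3.92 ± 0.252), Hist4h4 (3.81 ± 0.435), Hist2h4 (3.43 ± 0.277) and Hist1h1t.

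Outside the coding sequence the pooled 5hmC coverage of the other members was higher than within it. Over the 64 genes without the testis forms, 2508 coding CGs held 147 and 137 reads at 500 ng, a relative coverage of 0.0362 ± 0.00134, and 1053 CGs in the rest of the spans held 681 and 678, or 0.413 ± 0.00404. Hist1h2be alone held 440 and 403 of the latter, and without this gene, an alternative chosen after seeing the data, the values were 0.0362 ± 0.00209 and 0.223 ± 0.0237. Most of the 241 and 275 reads then left outside the coding sequence lay in a few genes. Hist1h2bc held 96 and 99 of them, Hist4h4 51 and 55, and Hist2h2be 44 and 54. By gene, 45 of 64 had a 500-ng read in the coding sequence, and 16 of the 51 with CGs in the rest of the span had one there. uCG coverage was 1.21 ± 0.0521 and 1.75 ± 0.0288. Unique sequence on both sides was present at 472 of the 2508 coding CGs but at 813 of the 1053 others. The part of this in the contrast was not tested. The 10 members with at least 0.1 of the library mean were, beside the testis forms, Hist2h2be, Hist1h2be, Hist1h2bc, Hist4h4 and Hist1h2ac, all with annotated spans over 2 kb, and the shorter Hist1h2bp (0.142) and Hist1h2bb (0.126). The 9 and 4 reads of Hist1h2bb were all coding. The other 4 of the 9 members with spans over 2 kb, Hist3h2a, Hist1h2bq, Hist1h2br and Hist1h1d, lay under 0.1. Hist1h2be (chr13:23583670-23621124, minus strand), whose annotated span of 37455 bp reaches into Hist1h1e, had 440 and 407 reads at 500 ng, of which 0 and 4 lay in its coding sequence. Hist1h2bc had 99 and 102 in its span and 3 and 3 in its coding sequence, and Hist4h4 53 and 69 in its span and 2 and 14 in its coding sequence. Hist2h2be differed from them: its 25 coding CGs, all of unique sequence, held 43 and 31 reads, or 0.945 ± 0.205, and the rest of its span 0.896 ± 0.141.

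**Figure D3:**
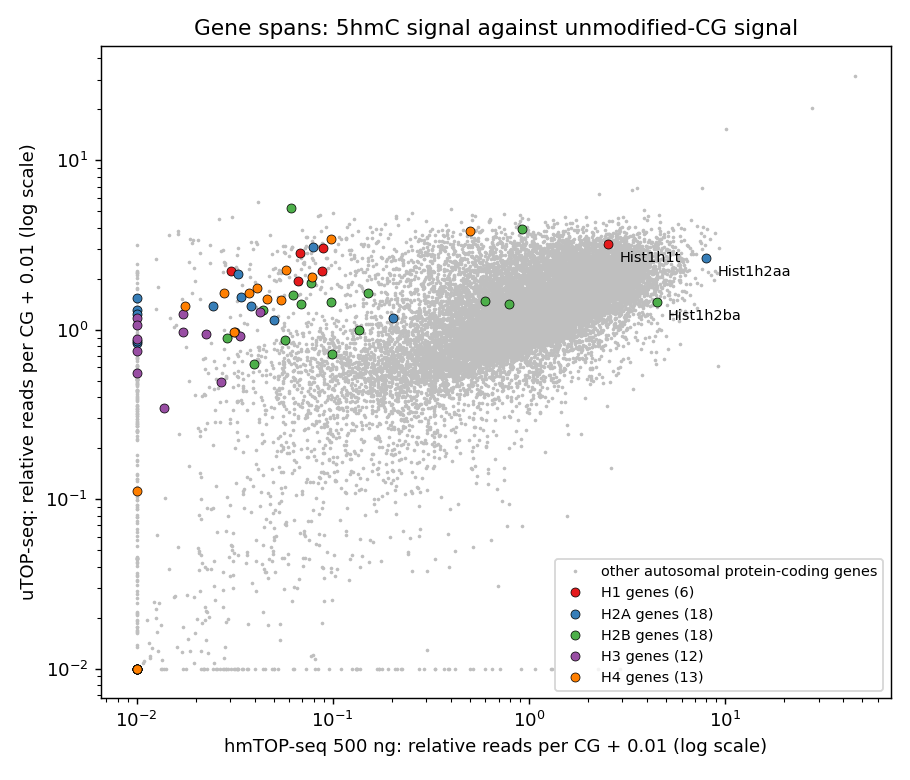
Relative reads per CG in gene spans, hmTOP-seq at 500 ng (horizontal) against uTOP-seq (vertical), as means over libraries plus 0.01 on log scales, for other autosomal protein-coding genes (grey) and for the histone genes by class (colors). Most histone genes lie to the left of the grey cloud at a uCG value near 1, the 7 genes without a read in the lower left corner, and the 3 testis forms at its right side.

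To show where the strongest single 5hmC signals sat, the CG with the highest mean count at 500 ng was taken for each gene, and the 6 highest are given on the plus strand with 14 bases on both sides and the CG in capitals. They lie in Hist1h2be (chr13:23592395-23592424), Hist1h2aa (chr13:23934605-23934634), Hist1h2ba (chr13:23933862-23933891), Hist1h2bc (chr13:23690932-23690961), Hist1h1t (chr13:23696263-23696292) and Hist2h2be (chr3:96221997-96222026).
Hist1h2be: ggtacgtgtcagccCGgagctctgccaata
Hist1h2aa: accagtgtatctggCGgcagtgctagaata
Hist1h2ba: ccgtctggatctccCGggacgtgatggtcg
Hist1h2bc: ttggtttagttaccCGagcatccccagggc
Hist1h1t: agatgggcttgcccCGggcctcgagatctc
Hist2h2be: ggcaccagcggttaCGgggtacttagggtg
The Hist1h2be site lies in its span outside the coding sequence, 28715 bp from the gene start, and had 37 and 35 reads at 500 ng but 1, 0 and 0 in uTOP-seq. The Hist1h2aa site is coding, and had 39 and 33 reads at 500 ng and 8, 5 and 0 in uTOP-seq. The Hist1h2ba site is coding too, with 26 and 30 reads, but the 50 bases to its left and right occur 15 and 10 times in the genome. The Hist1h1t site is coding with 11 and 21 reads at 500 ng and 29, 10 and 8 in uTOP-seq. Those of Hist1h2bc (15 and 18 reads) and Hist2h2be (8 and 13) lie outside the coding sequence.

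With 5hmCGs counted as CGs read in both 500-ng libraries, 185 of the 3628 distinct CGs in member spans (5.10%) were 5hmCGs, against 23.4% of all autosomal CGs. CGs read in all 3 uTOP-seq libraries made up 21.8% and 14.6%. At such uCGs the relative 5hmC coverage was 0.513 in member spans, 0.259 without the testis forms, and 2.64 over the autosomes.

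For each gene the share of 5hmC reads at 500 ng was set against its share of uCG reads with the quasi-likelihood test of edgeR over all autosomal protein-coding genes with at least 10 reads in the 5 libraries, at a Benjamini-Hochberg adjusted p under 0.05. The assays differ in chemistry and input, so that a difference says that a gene takes unequal shares of them. In the spans 60 members were tested, 57 were lower and 2 higher in 5hmC, where 40.6% of all genes tested were lower and 38.6% higher. Scaling by library size alone moved the calls over all genes from 7720 higher and 8118 lower to 5555 and 10370 and their median log2 fold change from -0.04 to -0.28, and left the members at 57 and 2. The members' median log2 fold change was -5.15, and -5.11 with genes without a 500-ng read at their bound. Of the members tested, 44 had under 10 reads at 500 ng and entered through their uCG reads, so that they had to differ, and these counts are a description. With at least 10 reads in every library, 10 members remained testable, of which 7 were lower and 2 higher.

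Hist1h2ba (log2 fold change 1.83 ± 0.20 SE, adjusted p = 2.26e-12 by edgeR) and Hist1h2aa (1.79 ± 0.16, adjusted p = 3.20e-16) were the members with a larger share of 5hmC than of uCG reads. Hist1h1t, at -0.15 ± 0.20 with an adjusted p of 0.490, did not pass the test. The lowest fitted values belonged to genes without a 500-ng read, Hist2h2ac, Hist1h2ae, Hist1h2ag, Hist1h3g and Hist1h3a. Among genes with reads in both libraries Hist2h2bb, with 2 and 2 at 500 ng, was at -6.37 ± 0.39. Nearest to 0 among the lower genes were Hist1h2be at -0.65 ± 0.09, Hist1h2bc at -1.11 ± 0.17, Hist2h2be at -1.88 ± 0.16 and Hist1h2ac at -2.39 ± 0.33. Other genes with spans over 2 kb were farther from 0, with Hist4h4 at -2.76 ± 0.16, Hist1h1d at -4.62 ± 0.23 and Hist3h2a at -5.23 ± 0.27.

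The 5hmC signal was also low on both sides of the genes. In the 1 kb upstream the median relative 5hmC coverage of the members was 0.0506 and that of other genes 0.421, and in the 1 kb downstream 0.177 and 0.766. uCG medians were 1.79 and 1.98 upstream, and 1.94 and 0.934 downstream. The genes stand close: 12 head-to-head pairs, each of an H2A and an H2B gene, had starts at most 500 bp apart, and 36 of 67 upstream windows overlapped the span of another member. Upstream, 59 members were tested by edgeR, 53 were lower and 3 higher in 5hmC, where 39.8% of all genes tested were lower and 32.2% higher. The 3 higher were the testis forms: Hist1h2ba (370 and 327 reads at 500 ng, 142, 88 and 87 in uTOP-seq, 2.86 ± 0.15), Hist1h2aa (292 and 294, 124, 91 and 84, 2.69 ± 0.15) and Hist1h1t (47 and 19, 26, 20 and 25, 1.59 ± 0.38). Without the first 500-ng library Hist1h1t was at 0.80 ± 0.54 and did not pass (adjusted p = 0.192 by edgeR). The upstream windows of Hist1h2ba and Hist1h2aa each hold the coding sequence of the other. Downstream, 61 were tested, 44 were lower and 0 higher, where 15.7% of all genes were lower and 15.1% higher. At an unadjusted p under 0.05 there was 1 member with a higher value, Hist1h2ba, with 112 and 97 reads at 500 ng and 66, 30 and 38 in uTOP-seq. Its log2 fold change was 0.60 ± 0.26 and did not pass the test (adjusted p = 0.0638 by edgeR), while DESeq2 called 0 members higher. Hist1h2ba did pass with library size alone, with unique CGs (adjusted p = 0.0487) and without the first uTOP-seq library (0.0280). Of the tested members, 39 upstream and 38 downstream had under 10 reads at 500 ng. They entered through their uCG reads, which favors a lower call, so that these counts are a description. With at least 10 reads in every library, 8 members were testable upstream, of which 5 were lower and 3 higher. Downstream 5 were testable, of which 3 were lower and 0 higher.

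From the start of the 64 other members, the relative 5hmC coverage was 0.0187 ± 0.00440 in the 250 bp before it and 0.0258 ± 0.00471 in the 250 bp after it. Other protein-coding genes had 0.439 ± 0.00608 and 0.413 ± 0.00680 there. Between 1750 and 2000 bp after the start the values were 0.320 ± 0.0248 and 1.56 ± 0.0102. The testis forms had 1.71 ± 0.0601 before and 4.85 ± 0.540 after the start. Their uCG coverage was 2.09 ± 0.495 before the start, which differed from the 2.30 ± 0.0337 of genes outside the set by less than its SD, and 2.24 ± 0.141 after it, against 2.05 ± 0.0368. Hist1h2ba and Hist1h2aa start 306 bp apart head to head, so that CGs of each gene also count as upstream of the other.

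**Figure D4:**
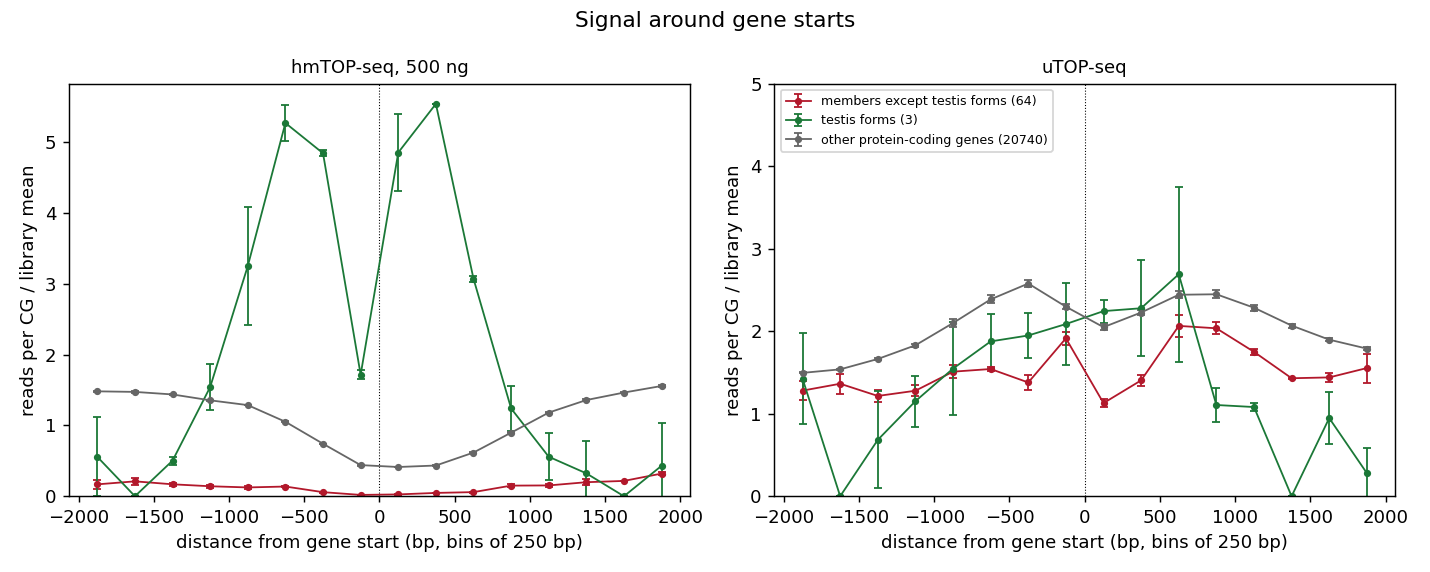
Reads per CG divided by the library mean in bins of 250 bp around gene starts (horizontal axis, bp), for hmTOP-seq at 500 ng (left) and uTOP-seq (right), as means with SDs over 2 and 3 libraries. The 64 other histone genes reach at most 0.320 in 5hmC, the testis forms reach 5.54 within 500 bp of the start, and outer bins of the testis forms hold as few as 1 CG. CGs of the head-to-head pair Hist1h2ba and Hist1h2aa count on both sides of the start.

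Known promoter elements of histone genes were looked for in the sequence. RefSeq promoters (GRCm38, 250 bases before to 50 after the start, either strand searched) were matched by symbol for 62 members among 27025 in all. The CCAAT box was present in 53 (37.9% of all promoters), including all 6 H1, 18 H2A, 16 H2B and 10 H3 promoters but 3 of 12 H4 promoters. TATAAA was present in 35 (14.2% of all). The octamer ATTTGCAT was present in 13 (1.75% of all), 7 of H2A and 6 of H2B genes, and AAACACA, the element named for H1 promoters, in 9 (7.14% of all), 5 of them of the 6 H1 genes. A match of letters is a description of the window and not a site of binding.

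Between the genes of the Hist1 locus the 5hmC signal was higher than in the genes but below the genome average. The genes form 4 groups parted by over 100 kb, with 18 genes on chr13:21715763-21837530, 5 on chr13:22035164-22043676, 29 on chr13:23531050-23764406, and Hist1h2ba with Hist1h2aa on chr13:23933773-23934851. In the sequence between the members of a group, outside 1 kb around each gene, 1776 CGs had 0.530 and 0.525 of the library mean in the 500-ng libraries. The 50-ng libraries gave 0.599 both times and the 5-ng libraries 0.425 and 0.577. uCG coverage was 0.671, 0.748 and 0.659. Hist1 gene spans had 0.281 ± 0.00599 and 1.26 ± 0.0526. With CGs of unique sequence only, the between-gene value was 0.804 ± 0.00651 for 5hmC and 1.15 ± 0.0870 for uCG. That of the Hist1 spans was 0.642 ± 0.0300 and 2.17 ± 0.0454. Without the testis forms, the Hist1 spans had a 5hmC coverage of 0.149 ± 0.00311 over all CGs and 0.365 ± 0.0139 over unique CGs. Their uCG coverage was then 1.23 ± 0.0479 and 2.13 ± 0.0277. Hist1h2be outside its coding sequence held 299 of these 946 unique CGs, and over all CGs 440 and 403 of the 500-ng reads. By group, the between-gene 5hmC value over all CGs was 0.509 ± 0.0228 in the first and 0.542 ± 0.0329 in the third. These differ by no more than their spread, and the second group held 11 such CGs.

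By distance from the nearest Hist1 gene other than the testis forms, relative 5hmC coverage was 0.0626 ± 0.0127 within 250 bp of the span, 0.135 ± 0.0289 over 250 to 500 bp, 0.299 ± 0.0494 over 500 to 1000 bp, 0.628 ± 0.00156 over 1000 to 2000 bp and 0.696 ± 0.0199 over 2000 to 5000 bp. Beyond, it was 0.519 ± 0.00994 up to 10 kb and 0.503 ± 0.0476 up to 20 kb. uCG coverage was 2.05 ± 0.126 within 250 bp and 2.21 ± 0.114 over 250 to 500 bp, 0.988 ± 0.0364 over 2000 to 5000 bp, and then 1.36 ± 0.0380 up to 10 kb and 1.20 ± 0.0337 up to 20 kb. Each step of 5hmC from 250 bp to 2 kb was larger than the SDs, and the last 2 bins did not differ beyond theirs.

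**Figure D5:**
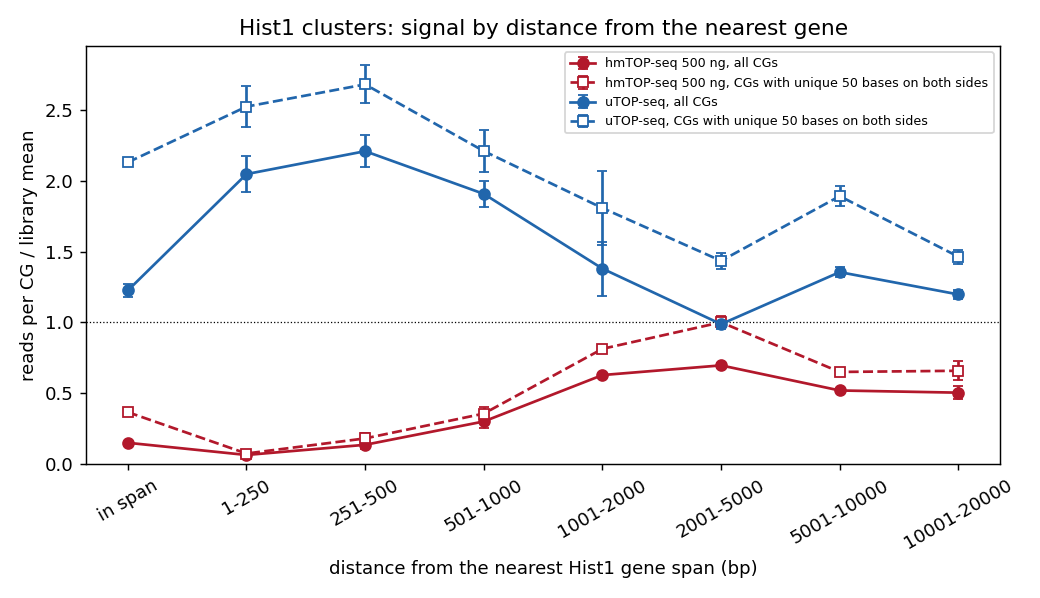
Reads per CG divided by the library mean by distance from the nearest Hist1 gene span other than the testis forms (horizontal axis, bp), as means with SDs over 2 hmTOP-seq libraries of 500 ng (red) and 3 uTOP-seq libraries (blue), for all CGs (filled) and CGs of unique sequence (open). 5hmC coverage over all CGs increases from 0.0626 next to the genes to 0.696 over 2000 to 5000 bp, while that of uCGs goes from 2.21 over 250 to 500 bp to 0.988 over 2000 to 5000 bp and 1.36 up to 10 kb.

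With less input DNA the reads lay on fewer CGs. Of the 57 members under 0.1 of the library mean at 500 ng, 54 were also under it at 50 ng, 53 at 5 ng and 51 at both. The exceptions were Hist1h2bn and Hist2h2bb at 50 ng, Hist1h2bh, Hist1h1d and Hist2h2ac at 5 ng, and Hist2h4 at both. At 5 ng the reads of these 4 genes came from 1 library each, such as 29 and 0 in Hist1h1d and 0 and 24 in Hist2h2ac. Reads on the spans and 1 kb around them numbered 2221 and 2195 in the 500-ng libraries, on 548 and 590 CGs. The 50-ng libraries had 1642 and 1506 on 301 and 312 CGs, and the 5-ng libraries 715 and 1185 on 77 and 92 CGs. Their share of all reads was 0.00683% and 0.00688% at 500 ng (exact 95% binomial intervals 0.00655% to 0.00712% and 0.00659% to 0.00717%) and 0.0399%, 0.0416% and 0.0395% in uTOP-seq. Libraries without BGT held 0 or 1 read each on these regions, of 3409 to 10072 in all. The upper ends of their exact 95% intervals were 0.0395% to 0.161%, above the share at 500 ng. These counts are too few to tell whether the share in the controls was lower. The intervals cover counting error only.

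Of the 67 spans, 18 had no read in either 500-ng library, 32 none in the 50-ng and 53 none in the 5-ng libraries. The relative coverage of the testis forms together was 4.51 at 50 ng and 3.69 ± 2.29 at 5 ng, and that of the other members 0.161 and 0.131 ± 0.0142. In edgeR tests of a gene's share at 50 ng against 500 ng, 24 members had enough reads and 0 were called, where 0.00516% of all genes tested were lower and 0.0% higher. At an unadjusted p under 0.05 there were 2 members, Hist1h2ba and Hist1h2bb, and 2248 of 19396 genes, and DESeq2 called 0 members. At 5 ng against 500 ng, 19 members were tested and 0 were called, where 0.0% of all genes were lower or higher. At an unadjusted p under 0.05 there were 2 members, Hist1h2bp and Hist3h2a, and 2374 of 19209 genes, and DESeq2 called 0 members. Without 1 of the 50-ng libraries up to 2 members were called at 50 ng, and without 1 of the 5-ng libraries 6 or 9 at 5 ng, with 2370 to 2451 and 10504 to 10789 genes called in all. Hist1h2bb had 9 and 4 reads in the 500-ng libraries and none with less DNA, and Hist1h2bp had 10 and 13, then 14 and 4 with 50 ng, and none with 5 ng. At 5 ng a simulated 4-fold change was found in 63.5% of genes drawn from all genes with enough reads. Detection among the members, which mostly had fewer reads, was not simulated.

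Genes outside the replication-dependent set were listed for comparison. Of 12 genes of replication-independent histone variants, 8 were lower and 2 higher in 5hmC than in uCG by edgeR, where 40.6% of all genes tested were lower and 38.6% higher, and the 4 lowest, H2afx, H2afz, H1fx and H2afj, named after their values were seen, had relative 5hmC coverage of 0, 0.0223, 0.0251 and 0.0429. The 2 higher were H2afy and H1foo, the oocyte linker histone. H2afy was at 2.68 with a log2 fold change of 1.11 ± 0.04 and an adjusted p of 5.54e-34 by edgeR. H1foo was at 2.03 with 1.32 ± 0.17 and an adjusted p of 4.01e-10 by edgeR. Of 15 autosomal genes for histone mRNA processing and cluster regulation, 12 were lower and 2, Lsm11 and Sympk, higher, against the same shares of all genes, with a median log2 fold change of -0.58. Slbp, which binds the stem-loop, was at -1.14 ± 0.11, and Npat, the organizer of histone locus bodies, at -1.01 ± 0.10.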

How the data were processed

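Per the labels and the methods, the authors mapped hmTOP-seq reads to mm10 (mapping quality of at least 30, raw reads of at least 80 nt), removed duplicates of the same start and read length, and deposited raw read counts per CG and library. uTOP-seq counts are also on mm10, and their filters and the aligner are not given in the sources used here. hmTOP-seq counts merge the strands and list all 21353092 CGs, and uTOP-seq counts list CGs with a read by strand, summed here. All positions lay on a CG of GRCm38. Members and gene lists were chosen with earlier results of these data known.

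CGs were assigned to GENCODE M21 spans and 1 kb on either side. Reads per CG were divided by the library's mean over 20383623 autosomal CGs. Uniqueness was counted from all 50- and 100-base stretches of the genome. Tests used edgeR 4.0.16 in R 4.3.3 (TMM, library size the sum over regions of 1 kind, genes with at least 10 reads, adjusted p under 0.05) without pairing, since replicate numbers correlated at most 0.0355. Alternatives were DESeq2 1.42.0, other scaling and filters, unique CGs, other flanks and leaving out libraries. On simulated data edgeR found 94% (500 ng against uTOP-seq), 87.5% (50 ng) and 63.5% (5 ng) of 200 genes changed 4-fold among 19943, 19278 and 18932. Library totals were 14884939 to 32502791 reads with label, so that counting error per gene is large where reads are few. Values were calculated with Python 3.11.15, numpy 2.4.6 and pandas 2.3.3. Named genes were the 5 highest and lowest by 5hmC and by uCG coverage, the 5 strongest calls in each direction, the H1 genes, the testis forms, and single CGs of highest count.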

Additional observations from a re-analysis of the deposited data

How the results depend on the processing

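Under every alternative below the members' 5hmC medians and pooled values stayed under the genome average of 1, and those of uCG above it. Values given over all CGs are pooled and not medians: all reads of the members, testis forms included, over all their CGs. For 5hmC in the spans this pooled value was 0.252, and 0.148 without the testis forms. The median relative 5hmC coverage of the spans was 0.00880 with unique 50-base CGs, 0.00916 at 50 ng, 0 at 5 ng, and 0.0186 to 0.0202 without 1 library. Upstream it was 0.102 and 0.0875 with unique 50 and 100 bases, 0.238 over all CGs, 0.0154 with flanks of 500 bp, 0.0819 with 2 kb, 0.0289 at 50 ng, 0 at 5 ng, and 0.0322 to 0.0453 without 1 library. Downstream it was 0.227 and 0.203 with unique 50 and 100 bases, 0.273 over all CGs, 0.0310 and 0.288 with 500 bp and 2 kb, 0.184 outside other genes, 0.187 at 50 ng, 0 at 5 ng, and 0.127 to 0.129 without 1 library. For uCG the span median was 2.50 and 2.15 with unique 50 and 100 bases. Upstream it was 2.62 and 2.58 with unique 50 and 100 bases, 1.59 over all CGs, 2.08 with 500 bp and 2.13 outside other genes. Downstream it was 2.26 and 2.27, 1.55 over all CGs and 1.67 with 2 kb. The between-gene 5hmC value was 0.804 and 0.796 with unique 50 and 100 bases, 0.514 over the whole stretch and 0.511 outside 2 kb, and for uCG 1.15, 1.11, 1.06 and 0.554.

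In the edgeR tests, at least 10 reads in every library left 10 members tested in spans, 8 upstream and 5 downstream. Of these, 7, 5 and 3 were lower and 2, 3 and 0 higher. Genes called were 6803 upstream and 2844 downstream, since fewer genes were tested. Downstream, 1 member, Hist1h2ba, was called higher with library size alone, with unique CGs and without the first uTOP-seq library (0 to 1 over left-out libraries), and genes called ranged from 2872 to 4591 without 1 library. At 50 against 500 ng, genes called were 36 with DESeq2, 72 with the replicate block, 0 without a filter and with 10 reads in every library, and 1 to 2451 without 1 library. At 5 against 500 ng they were 897 with DESeq2, 2 with the replicate block, and 0 to 10789 without 1 library. High values came when a low-input library was left out, with 0 to 1 member lower and 0 to 1 higher at 50 ng, and 0 to 6 lower and 0 to 3 higher at 5 ng. The lone library is then assumed to vary like the 500-ng pair, and the cause was not tested. Replicate numbers did not pair the libraries. With the replicate block the genes called in spans went from 15838 to 15441, and no member's call in spans or upstream changed, with 57 members lower and 2 higher in spans, while 2 members, Hist1h4j and Hist1h2ap, changed their call downstream. Hist1h1t ranged from -0.25 to 0.072 without 1 library, above 0 without the first uTOP-seq library (adjusted p = 0.777 by edgeR), and Hist1h4n was at -5.30 (adjusted p = 0.0519) without the first 500-ng library. The pooled summary was not applied between genes, which are 1 region. Depth limits single members, of which 42 had at most 5 reads at 500 ng.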
